A study of Homo sapiens with 6 samples.

Results

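The genes described here are the urea cycle enzymes CPS1, OTC, ASS1, ASL and ARG1, the enzyme NAGS that makes the activator of CPS1, and the 4 transaminases that move nitrogen between glutamate, aspartate and alanine (GOT1, GOT2, GPT and GPT2). They were chosen by symbol: a row of the expression table belonged to a gene if its annotation gave that symbol alone, and with several rows the brightest would have been taken. All 10 genes were found, each with 1 row, among 18708 rows (transcript clusters, the array's gene-level units) in all. The samples were PLC/PRF/5 cells, an established human hepatocellular carcinoma line, collected 48 h after lipid transfection with siRNAs against SLU7 (SLU7 siRNA, 3 arrays) or with an siRNA without a relevant target, named siGL2 in the design text and siGL with the replicate number in the sample descriptions (control siRNA, 3 arrays). SLU7 encodes a splicing factor of the late catalytic step, and the study's title ties it to liver differentiation, metabolism and quiescence. No allele or other agent is given in the labels and all arrays share this single cell line.

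The urea cycle is the route by which hepatocytes turn ammonia into urea. CPS1 joins ammonia and bicarbonate in the mitochondrion once NAGS has made its obligate activator, OTC adds ornithine to give citrulline, and in the cytosol ASS1 adds aspartate, ASL releases fumarate and arginine, and ARG1 splits arginine into urea and ornithine. The transaminases supply the aspartate and glutamate that carry nitrogen into the cycle, and liver cells hold a cytosolic form (GOT1, GPT) and a mitochondrial form (GOT2, GPT2) of each.

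Values are log2 expression values as deposited, and a difference of 1 log2 unit is a doubling on the linear scale. Each array had a median of 6.61 to 6.63 and a lower quartile of 4.86 to 4.98 log2 units, and a gene under that quartile is called dim here, since its fold is uncertain. SLU7 itself (row 2884684) read 5.84, 5.58 and 6.21 on the SLU7 siRNA arrays, against 7.89, 7.01 and 7.24 on the control siRNA arrays, without overlap. Its log2 difference was -1.51 ± 0.31 (SE, n = 3 each; limma adjusted p = 0.0783), and its direction fits the labels on all 6 arrays. The first principal component, with 36.6% of the variance between arrays, set SLU7 replicate 1 and control replicate 2 against the remaining 4, and values within that pair and within those 4 are given beside the results. The labels do not say whether replicates were separate cultures, so a p-value here reflects array-to-array spread alone, possibly technical. In RNA from whole cultures, fewer cells expressing a gene and less RNA per cell cannot be told apart.

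CPS1 and ASS1, the enzymes that bring in the first and the second nitrogen of urea, were lower on every SLU7 siRNA array than on every control siRNA array, by 2.63-fold and 2.54-fold. ARG1 was lower on every SLU7 siRNA array as well, by 1.63-fold, but at dim values. The other 7 genes overlapped between the groups, with differences from -0.39 to 0.62 log2 units. None of the 10 passed limma's test at an adjusted p of 0.05, a threshold that 0.433% of all rows passed. CPS1 and ASS1 were the 2 genes with an unadjusted limma p under 0.05, against 13.1% of all rows. Groups without overlap were found for 3 of the 10 genes, against 18.9% of all rows, and all 3 were lower with SLU7 siRNA (9.21% of all rows lower, 9.64% higher). The median difference of the 10 genes was -0.24 log2 units, beside 0.004 for all rows, with 6 genes below 0 and 4 above.

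**Figure D1:**
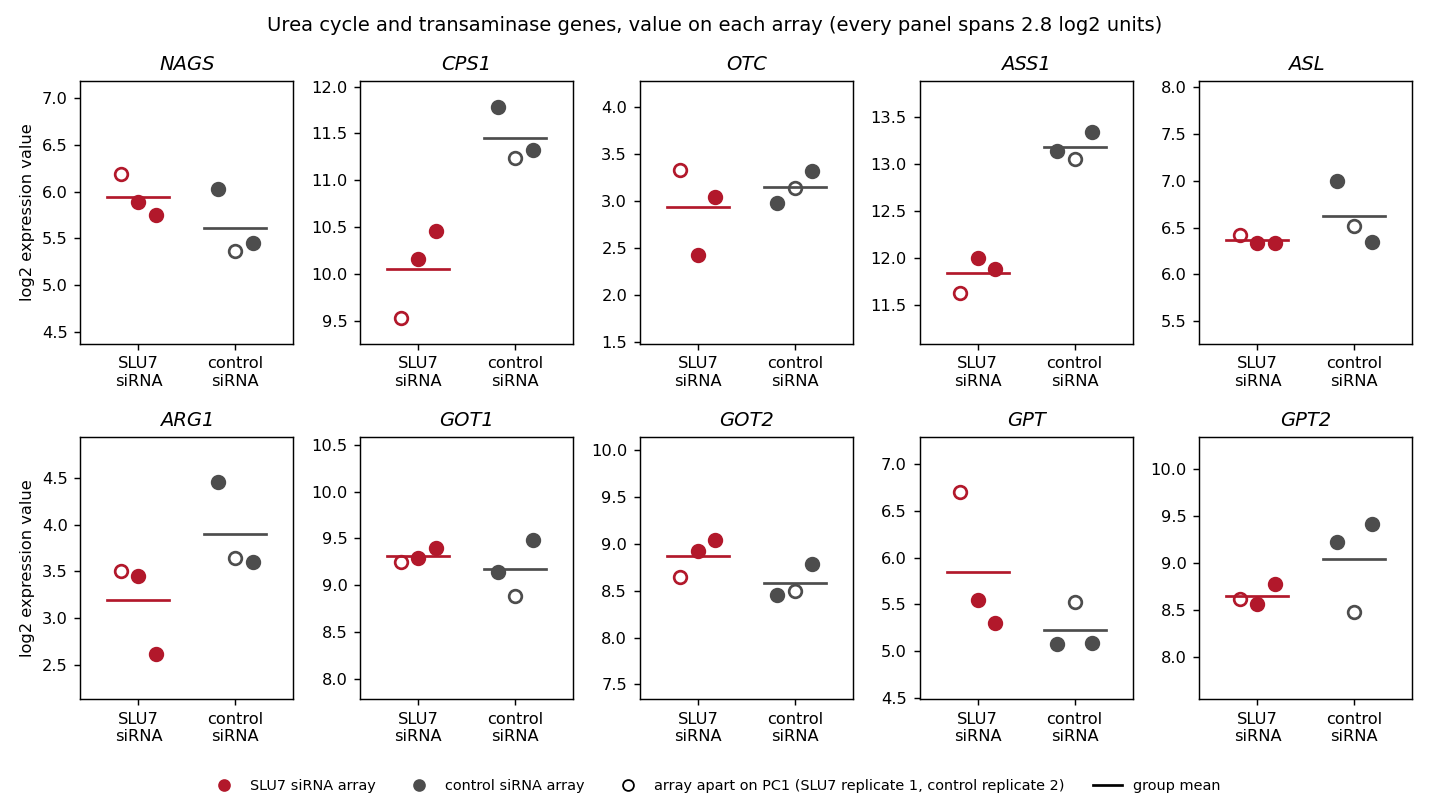
Log2 expression value of each of the 10 genes (1 panel each) on the 3 SLU7 siRNA arrays (red, left) and the 3 control siRNA arrays (grey, right), with the group mean as a line and the 2 arrays that stand apart on the first principal component (PC1) as open points. The red and grey points lie clear of each other for CPS1, by 0.78 log2 units, and for ASS1, by 1.05, and only just for ARG1, by 0.10.

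NAGS makes N-acetylglutamate, without which CPS1 is inactive. The NAGS row (3722722) read 6.19, 5.89 and 5.75 log2 units on the SLU7 siRNA arrays, against 6.02, 5.37 and 5.46 on the control siRNA arrays. The highest value was on a SLU7 siRNA array and the lowest on a control siRNA array, but control replicate 1 sat among the SLU7 siRNA arrays. Its difference was 0.33 ± 0.28 (SE, n = 3 each; limma adjusted p = 0.727), with a 95% interval from -0.31 to 0.97. Within the pair of arrays that stand apart the difference was 0.82, and within the other 4 arrays 0.08.

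CPS1, carbamoyl phosphate synthetase, catalyses the entry step of the cycle and is among the most abundant proteins of hepatocyte mitochondria. The CPS1 row (2526079) read 9.53, 10.16 and 10.46 log2 units on SLU7 siRNA replicates 1 to 3, against 11.78, 11.24 and 11.32 on control siRNA replicates 1 to 3. Every SLU7 siRNA array was below every control siRNA array, and the lowest of them was SLU7 replicate 1, an array that stands apart. The group means were 10.05 ± 0.47 with SLU7 siRNA and 11.45 ± 0.30 with control siRNA (SD, n = 3 each). The difference was -1.39 ± 0.32 log2 units (SE), which leaves 38.0% of the control level, with an interval of 1.59-fold to 4.34-fold lower. Its limma adjusted p was 0.096, rank 379 of all rows by p. By an exact permutation test (two-sided) p was 0.1, the minimum with 3 arrays against 3. The CPS1 difference was -1.70 log2 units within the pair that stands apart and -1.24 within the other 4 arrays.

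OTC, ornithine transcarbamylase, forms citrulline in the mitochondrion. It was dim on all 6 arrays: the OTC row (3973995) read 3.33, 2.43 and 3.04 log2 units with SLU7 siRNA, against 2.98, 3.14 and 3.32 with control siRNA. The lowest and the highest of these 6 values both came from SLU7 siRNA arrays. Its difference of -0.21 ± 0.30 (SE, n = 3 each; limma adjusted p = 0.865) had an interval from -0.90 to 0.47, and it was 0.04 without SLU7 replicate 2. No detection calls were used here, so these values do not show whether OTC RNA was present.

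ASS1, argininosuccinate synthetase, joins citrulline and aspartate in the cytosol and sets the pace of arginine synthesis. The ASS1 row (3191570) read 11.63, 12.0 and 11.88 log2 units on SLU7 siRNA replicates 1 to 3, against 13.14, 13.06 and 13.35 on control siRNA replicates 1 to 3. The groups were separated by 1.05 log2 units, more than the spread within either of them. The means were 11.84 ± 0.19 with SLU7 siRNA and 13.18 ± 0.15 with control siRNA (SD, n = 3 each). The difference was -1.35 ± 0.25 log2 units (SE), or 39.3% of the control level, with an interval of 1.72-fold to 3.75-fold lower. Its limma adjusted p was 0.0596, rank 149 of all rows by p, and the exact two-sided permutation p was again 0.1. The ASS1 difference was -1.43 within the pair that stands apart and -1.30 within the other 4 arrays. Across the 6 analyses that each left out 1 array, its difference ran from -1.43 to -1.24 and that of CPS1 from -1.60 to -1.14. ASS1 has many processed pseudogenes of near-identical sequence, so its value may hold signal from copies.

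ASS1 and CPS1 passed the 0.05 threshold in some other fits to the same values. Both did with an intensity trend and robust shrinkage (2.36% of rows passed), with array weights (3.07%) and with the 2 arrays that stand apart as a block (4.19%). That block was chosen after seeing these arrays, so its p-values are likely too small. ASS1 alone passed after rows with a mean under the lower quartile were left out (2.31% of the remaining rows passed). Neither passed with median centring (limma adjusted p = 0.0603 for ASS1 and 0.0965 for CPS1), with quantile normalization (0.0616 and 0.0885), in the 4 arrays alone (0.12 and 0.145), with a replicate block (0.229 and 0.278) or when any 1 array was left out.

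ASL, argininosuccinate lyase, follows ASS1 in the cytosol. The ASL row (3005408) read 6.42, 6.33 and 6.33 log2 units on the SLU7 siRNA arrays, against 6.99, 6.52 and 6.35 on the control siRNA arrays. The SLU7 siRNA arrays lay close together, and 1 of them was above control replicate 3. The difference was -0.26 ± 0.26 (SE, n = 3 each; limma adjusted p = 0.785), with an interval from -0.86 to 0.34. Without control replicate 1, the highest array, it was -0.07.

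ARG1, the liver arginase, completes the cycle. It was dim on all 6 arrays: the ARG1 row (2925861) read 3.50, 3.46 and 2.62 log2 units with SLU7 siRNA, against 4.46, 3.65 and 3.60 with control siRNA. The groups did not overlap, but the gap between them was 0.10 log2 units. Its difference was -0.71 ± 0.35 (SE, n = 3 each; limma adjusted p = 0.462), with an interval from -1.52 to 0.10 and an exact two-sided permutation p of 0.1. The difference was -0.15 within the pair that stands apart and -0.99 within the other 4 arrays, and without SLU7 replicate 3 it was -0.42.

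**Figure D2:**
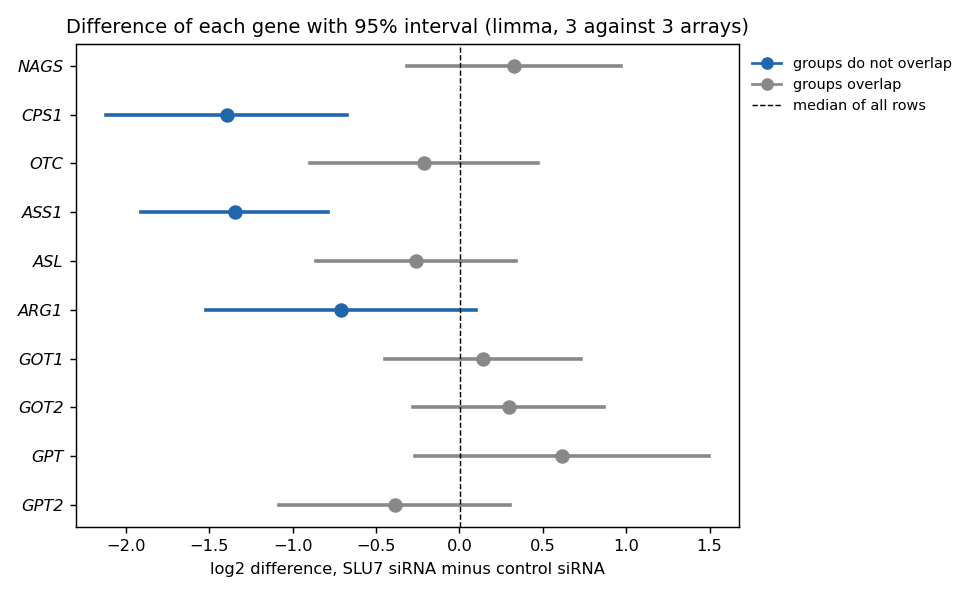
Log2 difference of each gene, SLU7 siRNA minus control siRNA, as a point with its 95% interval from limma (3 against 3 arrays), in blue where the groups do not overlap, with the median of all rows as a dashed line. The intervals of CPS1 (-2.12 to -0.67) and ASS1 (-1.91 to -0.79) lie below 0, and those of the other 8 genes span it.

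GOT1 and GOT2 are the cytosolic and mitochondrial aspartate aminotransferases, which interconvert aspartate and glutamate and form part of the malate-aspartate shuttle. The GOT1 row (3303013) read 9.25, 9.29 and 9.40 log2 units with SLU7 siRNA, against 9.15, 8.88 and 9.49 with control siRNA. The SLU7 siRNA values lay inside the control range. Its difference was 0.14 ± 0.26 (SE, n = 3 each; limma adjusted p = 0.906), with an interval from 1.36-fold lower to 1.66-fold higher. The GOT2 row (3693839) read 8.65, 8.93 and 9.04 log2 units with SLU7 siRNA, against 8.45, 8.49 and 8.79 with control siRNA. Only SLU7 replicate 1 and control replicate 3 kept the groups from separating. The GOT2 difference was 0.29 ± 0.25 (SE, n = 3 each; limma adjusted p = 0.724), with an interval from 1.21-fold lower to 1.82-fold higher, and it was 0.16 in the pair of arrays and 0.36 in the other 4.

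GPT and GPT2 are the alanine aminotransferases of the cytosol and the mitochondrion, which link alanine to pyruvate. The GPT row (3120681) read 6.70, 5.55 and 5.30 log2 units with SLU7 siRNA, against 5.08, 5.52 and 5.09 with control siRNA. SLU7 replicate 1 stood well above the other 5 arrays, which overlapped. GPT had the largest positive difference of the 10 genes, 0.62 ± 0.39 (SE, n = 3 each; limma adjusted p = 0.582), and this was 0.19 without SLU7 replicate 1. The GPT2 row (3659039) read 8.61, 8.56 and 8.78 log2 units with SLU7 siRNA, against 9.22, 8.48 and 9.42 with control siRNA. Control replicate 2 lay below all 3 SLU7 siRNA arrays and the other controls above them. The GPT2 difference was -0.39 ± 0.30 (SE, n = 3 each; limma adjusted p = 0.689), and it was 0.13 within the pair that stands apart, -0.65 within the other 4 arrays and -0.67 without control replicate 2.

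**Figure D3:**
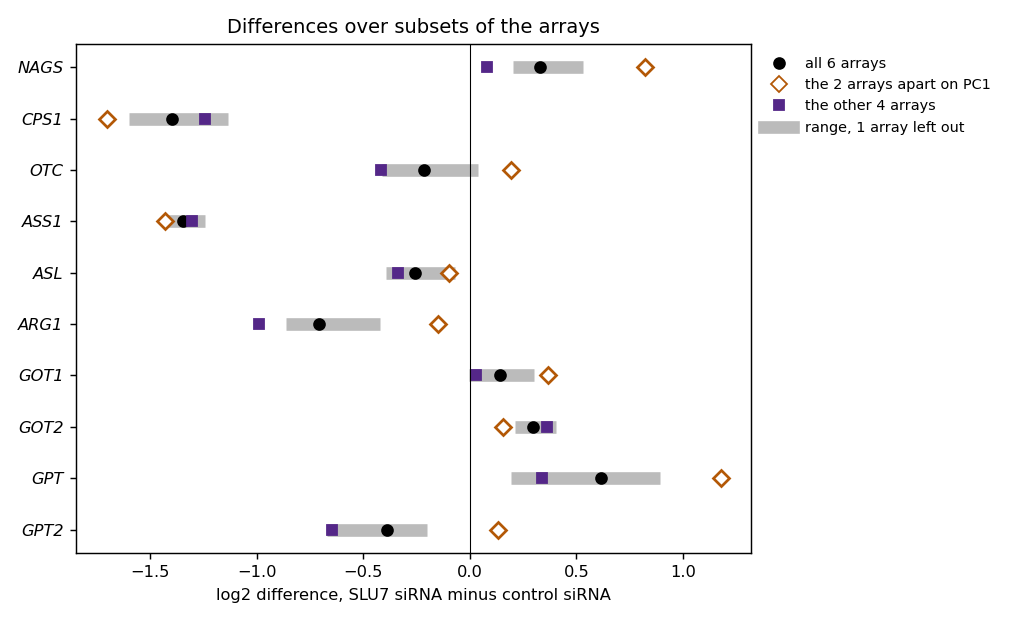
Log2 difference of each gene, SLU7 siRNA minus control siRNA, over all 6 arrays (black), within the 2 arrays that stand apart on the first principal component (PC1; open diamonds, single arrays with no error), within the other 4 arrays (squares), and its range when 1 array at a time is left out (grey bars). CPS1 lies between -1.70 and -1.14 and ASS1 between -1.43 and -1.24 in the subsets drawn, while OTC, GOT1 and GPT2 lie on both sides of 0.

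By compartment, the 5 mitochondrial genes (NAGS, CPS1, OTC, GOT2, GPT2) and the 5 cytosolic ones (ASS1, ASL, ARG1, GOT1, GPT) each held genes with negative and positive differences. Between the 2 subsets of arrays the median of the 10 genes changed sign: it was 0.14 within the pair that stands apart (all rows -0.02) and -0.38 within the other 4 arrays (all rows 0.02).

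Among all rows with a single symbol, the patterns most like that of CPS1 over the 6 arrays were those of CLPP, a mitochondrial protease subunit, CIRBP, a cold-inducible RNA-binding protein, and CD24, a surface glycoprotein. Likeness was the root mean square distance between the centred log2 values, which was 0.08 for CLPP, 0.12 for CIRBP and 0.13 for CD24. ASS1 was at 0.28, with 104 rows closer, and the next of the 10 genes was GPT2 at 0.61, with 1943 rows closer. CLPP had a difference of -1.31 (limma adjusted p = 0.139), CIRBP -1.39 (0.0921) and CD24 -1.54 (0.0683), so none of the 3 passed the test. These rows were picked by likeness over the same 6 arrays, so differences near that of CPS1 follow from the choice. CD24 has near-identical copies in the genome, which makes its value uncertain.

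Promoter windows came from RefSeq (GRCh38.p14), each of 300 bases from 250 before to 50 after a transcript start. Of the 10 genes, 8 entered the motif search, in 11 windows. No window of GPT, which had the largest positive difference, or of GPT2 was searched, so the counts below do not cover them. Both strands were searched for 7 motifs, chosen with the expression results known: the GC box GGGCGG, the CCAAT box, the TATA box TATAAA, the E-box CACGTG, the hypoxia response core ACGTG, a C/EBP site spelled TTNNGCAA and the core TGACG of the cyclic AMP response element. The E-box, which basic helix-loop-helix factors bind, was in 7.3% of all 35116 windows. Among the genes here it was in 2 of 11 windows, 1 of the 3 CPS1 windows and 1 of the 2 ASS1 windows. Of the 8 genes searched, CPS1 and ASS1 alone had more than 1 window. A tie between the motif and their differences was not tested. With GPT and GPT2 left out, the search cannot say whether the E-box was limited to CPS1 and ASS1 among the 10 genes. The shorter ACGTG, which lies inside CACGTG, was in 3 of 11 windows (the 2 with the E-box and the GOT2 window) and in 21.4% of all windows. GGGCGG was in 6 of 11 windows (45.0% of all), CCAAT in 3 (34.6%), TATAAA in 2 (11.5%), TGACG in 4 (24.6%) and TTNNGCAA in 0 (10.5%). The 2 windows with the E-box follow, 5′ to 3′ on the plus strand, in lower case with CACGTG and each further ACGTG or its complement in capitals. The CPS1 window is chr2:210519468-210519767 and the ASS1 window chr9:130444711-130445010. The array has no value for single transcript starts, so it does not say which of a gene's windows was in use.
CPS1: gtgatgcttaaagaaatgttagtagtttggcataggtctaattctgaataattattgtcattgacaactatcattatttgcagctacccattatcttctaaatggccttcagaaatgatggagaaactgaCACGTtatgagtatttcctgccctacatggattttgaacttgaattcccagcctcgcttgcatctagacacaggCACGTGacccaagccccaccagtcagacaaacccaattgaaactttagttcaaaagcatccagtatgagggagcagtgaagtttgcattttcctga
ASS1: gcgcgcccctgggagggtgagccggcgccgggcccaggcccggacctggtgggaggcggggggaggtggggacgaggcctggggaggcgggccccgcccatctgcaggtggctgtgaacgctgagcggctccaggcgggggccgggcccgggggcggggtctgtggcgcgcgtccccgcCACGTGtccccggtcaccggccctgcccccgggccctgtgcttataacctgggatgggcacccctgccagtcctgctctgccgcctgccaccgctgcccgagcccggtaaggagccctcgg

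The sequences differ in composition as well, with 40.3% G and C in the CPS1 window and 78.3% in the ASS1 window, beside a median of 58.7% for all windows. A match of letters is no evidence of binding.

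Genes around the cycle were counted from lists of partners, and none of them passed limma's test at an adjusted p of 0.05 in either direction. The lists here and below were chosen with earlier results of these data known. Their counts beside the shares of all rows are therefore descriptions and no independent test. Of 18 measured genes that handle ornithine, arginine and polyamines, 7 had an unadjusted p under 0.05 (13.1% of all rows), 8 were lower without overlap (9.21% of all rows) and 1 was higher without overlap (9.64%). Among those 8, OAT and SLC7A1, named for their narrow gaps, were clear of overlap by only 0.0019 and 0.0018 log2 units. The median of that list was -0.25 log2 units. ODC1, which turns ornithine into the polyamine putrescine, had its largest positive difference. ODC1 read 11.14, 11.47 and 11.65 log2 units on the SLU7 siRNA arrays, against 10.03, 9.92 and 10.60 on the control siRNA arrays. Its difference was 1.24 ± 0.29 (SE, n = 3 each; limma adjusted p = 0.105), a 2.36-fold higher level. ALDH18A1, which makes the precursor of ornithine and proline, read 9.24, 9.28 and 9.39 with SLU7 siRNA, against 10.33, 10.46 and 10.75 with control siRNA. The ALDH18A1 difference was -1.21 ± 0.24 (SE, n = 3 each; limma adjusted p = 0.0731). ODC1 and ALDH18A1 were clear of overlap in opposite directions, and each kept its size within the pair of arrays (1.22 and -1.22) and within the other 4 (1.25 and -1.20). SLC25A15, the mitochondrial ornithine carrier, and ARG2, the mitochondrial arginase, are named after their values were seen, for their place beside the cycle. They are among the 7 and the 8 genes counted above, as are SLC7A2, a carrier of cationic amino acids, and DDAH2, each at -0.85 log2 units. SLC25A15 had a difference of -0.79 ± 0.25 (SE, n = 3 each; limma adjusted p = 0.212) and ARG2 of -0.72 ± 0.23 (0.224), both without overlap.

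**Figure D4:**
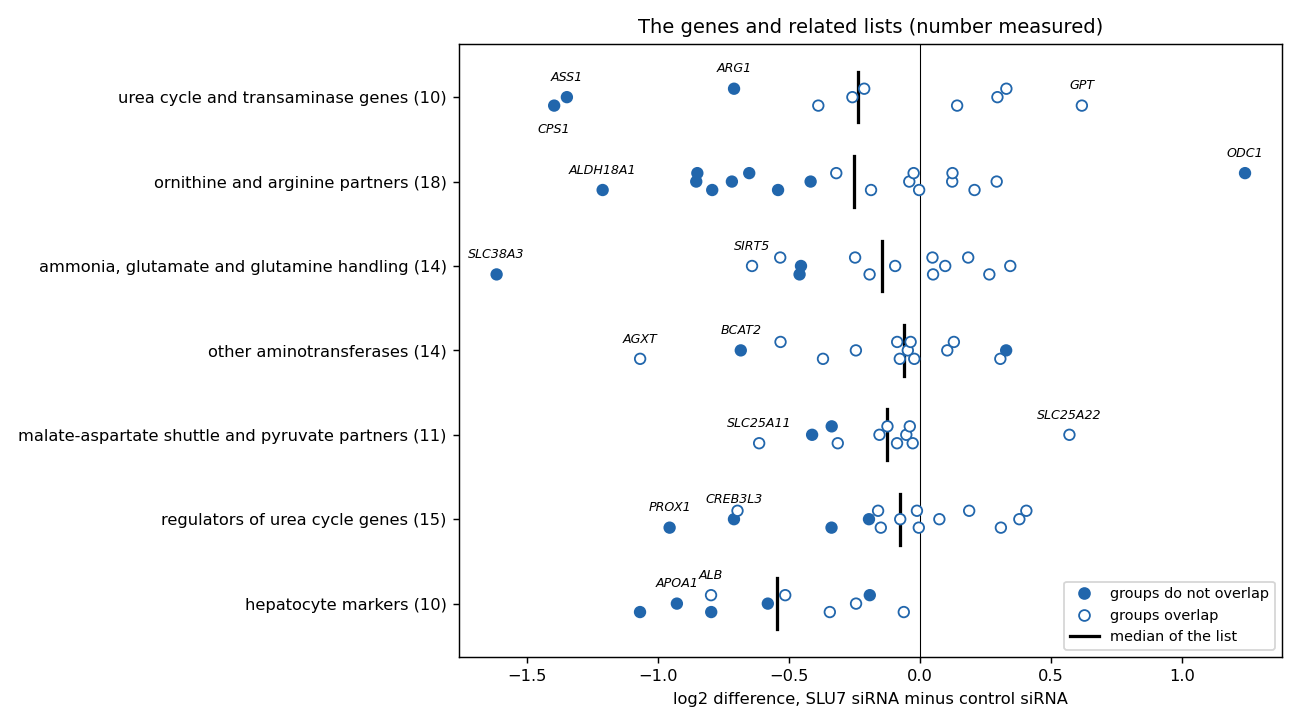
Log2 difference of every measured gene, SLU7 siRNA minus control siRNA, for the 10 urea cycle and transaminase genes and 6 related lists (rows), with filled points where the groups do not overlap, open points where they do, and each list's median as a bar. CPS1 and ASS1 lie at -1.39 and -1.35, ODC1 at 1.24 and SLC38A3 at -1.61, while most points lie within 1 log2 unit of 0.

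Among 14 genes of ammonia, glutamate and glutamine handling the median was -0.14. In that list 3 genes (SLC38A3 and, named after their values were seen, ASNS and CAD) were lower without overlap (9.21% of all rows), and 1 had an unadjusted p under 0.05 (13.1% of all rows). The gap was only 0.026 log2 units for CAD. The gene with that p was SLC38A3, a glutamine transporter of the hepatocyte surface. SLC38A3 read 7.65, 7.12 and 6.75 log2 units on the SLU7 siRNA arrays, against 8.68, 8.66 and 9.03 on the control siRNA arrays, without overlap. Its difference was -1.61 ± 0.30 (SE, n = 3 each; limma adjusted p = 0.0613), a 3.06-fold lower level. SIRT5, a mitochondrial deacylase that acts on CPS1 protein, had a difference of -0.64 ± 0.32 (SE, n = 3 each; limma adjusted p = 0.462) with overlap.

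The 14 other aminotransferases had a median of -0.06, with 1 lower without overlap (9.21% of all rows), 1 higher without overlap (9.64%) and 1 at an unadjusted p under 0.05 (13.1%). These shares are near the background, and the genes below are named only for having the 2 largest differences. BCAT2, the mitochondrial enzyme of branched-chain amino acids, had a difference of -0.68 ± 0.28 (SE, n = 3 each; limma adjusted p = 0.342) without overlap. AGXT, the peroxisomal enzyme that converts glyoxylate, had one of -1.07 ± 0.52 (limma adjusted p = 0.443) at values that were dim on 5 of 6 arrays. Partners of the malate-aspartate shuttle and of pyruvate had a median of -0.12 over 11 genes, with 2 lower without overlap (9.21% of all rows) and 0 at an unadjusted p under 0.05 (13.1%). SLC25A11, the oxoglutarate carrier, was at -0.61 ± 0.31 (limma adjusted p = 0.473) and SLC25A22, a mitochondrial glutamate carrier, at 0.57 ± 0.47 (0.716, dim on 5 of 6 arrays).

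Of 15 measured regulators of urea cycle genes, 2 had an unadjusted p under 0.05 (13.1% of all rows) and 4 were lower without overlap (9.21% of all rows), with a median of -0.08. The narrowest gap among those 4 was 0.033 log2 units, for FOXA3. PROX1, a transcription factor of liver development, read 7.30, 8.20 and 8.31 log2 units with SLU7 siRNA, against 8.96, 8.60 and 9.12 with control siRNA. The PROX1 difference was -0.95 ± 0.33 (SE, n = 3 each; limma adjusted p = 0.258). CREB3L3, a liver transcription factor held in the endoplasmic reticulum membrane, had a difference of -0.71 ± 0.28 (SE, n = 3 each; limma adjusted p = 0.316), also without overlap.

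None of 10 hepatocyte markers passed limma's test at an adjusted p of 0.05, and 3 had an unadjusted p under 0.05 (13.1% of all rows). All 10 differences were negative (49.5% of all rows), with a median of -0.55 log2 units, and 5 markers were lower without overlap (9.21% of all rows) while the other 5 overlapped. The narrowest gap among the 5 without overlap was 0.0086 log2 units, for KRT18. The mean over the 10 markers lay between 8.29 and 8.50 on the SLU7 siRNA arrays, against 8.81 to 8.99 on the control siRNA arrays. Albumin (ALB), a defining hepatocyte product, was dim on all 6 arrays, at 2.84 to 3.42 with SLU7 siRNA and 3.17 to 4.52 with control siRNA. AFP (4.84 to 6.50), TTR (5.49 to 6.44) and SERPINA1 (4.06 to 5.95) were also below the array medians on all 6 arrays. Transferrin (TF), the apolipoproteins APOA1 and APOB, the keratins KRT8 and KRT18, and FGB were well above the array medians. The part of these markers in the differences of CPS1 and ASS1 was not tested.

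Markers of other cell types overlapped between the groups in their mean level. The mean over 10 blood and endothelial markers lay between 4.67 and 5.13 on the SLU7 siRNA arrays, against 4.85 to 4.86 on the control siRNA arrays. PTPRC, the pan-leukocyte marker, and MPO were dim on all 6, while HBB, PECAM1 and VWF, named after their values were seen, were dim on none. S100A8 read 7.87 on SLU7 replicate 2, against 3.34 to 4.50 on the other arrays. The mean over 10 fibroblast and stellate cell markers lay between 4.59 and 5.08, against 4.72 to 4.97. Of these markers 5 were dim on all 6 arrays, while COL1A1, PDGFRB (8.09 to 8.48) and DES (6.87 to 8.21) were dim on none. The mean over 6 kidney and intestine markers lay between 3.47 and 3.89, against 3.38 to 3.63.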

How the data were processed

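Total RNA was labelled with biotin and hybridised to Affymetrix Human Exon 1.0 ST arrays, 1 array per sample (3 SLU7 siRNA, 3 control siRNA). Per the labels, the core chip definition of aroma.affymetrix was used, and per the submitters' processing notes RMA, which corrects background, normalizes and summarises probes. The deposited log2 values (0.96 to 14.49) hold 1 value per transcript cluster, so altered exon use cannot be told from altered level. The genome build is not given in the sources used here.

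Of 18708 rows, 16287 had 1 symbol in GEO's platform annotation, 674 several and 1747 none. Older symbols were updated through RefSeq (GRCh38.p14), which changed 2179. Of those with 1 symbol, 16202 were found there. All rows were fitted with limma 3.58.1 (R 4.3.3; lmFit, eBayes, no trend, group as the only term), with Benjamini-Hochberg adjustment over all rows at 0.05. The fit was tested on simulated data. Arrays shared at most 9 exact values in any pair.

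The genes, lists and motifs were chosen with earlier results of these data known. The naming rule takes the 10 genes, SLU7, from each list of partners the genes past the threshold and the 2 largest differences, and the 3 rows most like the gene with the largest difference. The lists covered ornithine and arginine, ammonia and glutamine, other aminotransferases, shuttle and pyruvate partners, regulators, and markers of hepatocytes, blood and endothelium, fibroblasts and stellate cells, and kidney and intestine. Of 132 listed genes, counted with the 10, 118 had a row with 1 symbol. Alternatives were a replicate block, no dim rows, an intensity trend with robust shrinkage, median centring, quantile normalization, weighted arrays, a stricter threshold (0.01), averaging a gene's rows, leaving out each array, and the 2 arrays that stand apart as a block or left out. The number of arrays limits the precision, with a median standard error of 0.31 log2 units.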

Additional observations from a re-analysis of the deposited data

How the results depend on the processing

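The number of rows past the threshold, 81 with the settings of the report, was 0 with a replicate block, in the 4 arrays alone, at an adjusted p under 0.01 and 0 in each analysis without 1 array. In the analyses without 1 array, 1833 to 2573 rows had an unadjusted limma p under 0.05, and in the 4 arrays alone 2922 did. The count was 324 without the dim rows, 441 with an intensity trend and robust shrinkage, 575 with array weights and 783 with the 2 arrays that stand apart as a block. Of the 10 genes, 1 passed without the dim rows (ASS1, adjusted p = 0.0277), and 2 with the trend, with array weights and with that block (ASS1 0.00468, 0.0204 and 0.0254, and CPS1 0.0241, 0.0433 and 0.0328), all in limma. Over the settings that keep 6 or 4 arrays, the adjusted p of ASS1 ran from 0.00468 to 0.229 and that of CPS1 from 0.0241 to 0.278. SLU7 passed without the dim rows (-1.51, adjusted p = 0.0411), with the trend (-1.51, 0.033), with array weights (-1.61, 0.0269) and with that block (-1.51, 0.043). The median of the genes was -0.058 over the 8 left without the dim rows, a setting that drops OTC and ARG1. Without 1 array at a time it ran from -0.33 to -0.10, the difference of OTC from -0.41 to 0.040 and the difference of GOT1 from -0.0034 to 0.30. The labels state no pairing, so the replicate numbers were not taken as pairs. The deviations of same-numbered arrays from their group means correlated at -0.38, -0.31 and 0.14. These correlations cannot decide whether arrays were paired, since the deviations within each group of 3 arrays sum to 0. The replicate block gave 0 of the 10 genes and 0 rows past the threshold (1845 at an unadjusted limma p under 0.05). Each gene had 1 row, so the mean of all its rows changed nothing. The cause of these changes was not tested.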
